A study of Mus musculus with 38 samples.

Results

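Pdcd1 encodes PD-1, the inhibitory receptor of T cells. The accessible elements described here are the peaks of 2 tables of assay for transposase-accessible chromatin (ATAC-seq) reads whose nearest protein-coding gene body, within 100 kb, was Pdcd1. They were 9 of 73610 peaks in the table of endogenous tumour T cells and 13 of 169323 peaks in the table of OT-1 and naive T cells, 22 of 242933 in all. Peaks were assigned to the gene by position alone, without any measured level, but the gene was chosen with earlier results of these data known. Pdcd1 lies on the minus strand of mouse chromosome 1 (mm10, chr1:94038305-94052553), so that its start is at 94052553. No other protein-coding gene of the annotation lay within 300 kb upstream of it, while 9 lay within 300 kb on the other side.

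The study asked how chromatin in CD8+ T cell subsets of a tumour differs between young and aged mice. All groups were labelled wild-type C57BL/6J, 64-68 weeks old (aged) or 10-12 weeks old (young), and tumour cells were taken from B16-OVA melanomas, which carry ovalbumin, on day 15 after inoculation. In the endogenous table, Tadys cells (labelled age-associated dysfunctional) came from aged mice only, with 2 libraries. Tterm cells (labelled terminally exhausted, gated Slamf6-Tim-3+) had 3 aged and 5 young libraries, and Tprog cells (progenitor exhausted, gated Slamf6+Tim-3-) had 3 aged and 4 young libraries. The design text gives one more gate, Slamf6-Tim-3-, under another name (TTAD), and the labels do not tie it to Tadys. In the other table, OT-1 cells, whose transgenic receptor recognises ovalbumin, came from the tumours as Tterm (6 aged, 7 young libraries) and Tprog (2 aged, 2 young libraries). Naive CD8+ T cells came from spleen (2 aged, 2 young libraries). The labels do not say into which hosts OT-1 cells were placed, nor whether the age is that of the donor or the host. Cells were combined into 2 or 3 biological replicates of 5000 to 50000 cells. Nothing in the labels says which libraries are separate pools, so p-values measure the spread between libraries, which may be technical.

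PD-1 is induced when the T cell receptor is engaged, binds the ligands PD-L1 and PD-L2 and recruits the phosphatase SHP-2, which dampens signalling from the receptor and from CD28. It is transient after acute activation and stays on in exhausted T cells during chronic infection and in tumours, where it is the target of checkpoint blockade. In mice with chronic viral infection, an enhancer upstream of Pdcd1 has been described as open in exhausted and closed in naive CD8+ T cells, and NFAT factors are known to bind the promoter region. No coordinates of that enhancer were used here.

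The promoter is shown because the peak over the gene start, the element of most reads in both tables, covers it. The 250 bases before the gene start (RefSeq, GRCm38.p6, chr1:94052554-94052803, minus strand, 5′ to 3′) are printed with the NFAT core, GGAAA on either strand, in capitals.

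Pdcd1: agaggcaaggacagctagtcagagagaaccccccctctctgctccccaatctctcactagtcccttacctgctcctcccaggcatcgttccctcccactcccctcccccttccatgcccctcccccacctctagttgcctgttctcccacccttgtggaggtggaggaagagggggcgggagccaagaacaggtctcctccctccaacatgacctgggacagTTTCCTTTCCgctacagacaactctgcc

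Both matches lay on the opposite strand and next to each other, from base -28 to -24 and from base -23 to -19 relative to the gene start. The same 5 letters occurred in 55.6% of 32851 promoter windows of that length, so their presence is common. The window held no match to the letters searched for AP-1 (TGANTCA, in 6.75% of windows), RUNX (TGTGGT, 14.0%), TCF (CTTTGA, 13.8%), FOXO (GTAAACA, 3.17%), NR4A (AAGGTCA, 4.08%) or T-box factors (GGTGTGA, 3.33%). Its GC content was 60.4%, against a median of 52.4%. No genome sequence was used, so the distal elements are given by position only.

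Elements are called by the distance of their centre from the gene start, with plus for positions into and past the gene. In the endogenous table they were the gene start (chr1:94051042-94056803), +4 kb (94047999-94049015), +10 kb (94041863-94043166) and +12 kb (94040457-94040711) inside the gene, +17 kb (94034625-94036487) 1818 bp past its end, and upstream -15 kb (94067020-94067478), -22 kb (94074135-94075668), -26 kb (94078338-94079454) and -39 kb (94091372-94092455). The other table had its own peak calls, of which 8 overlapped these and carry the same names: the gene start (94052124-94056834), +4 kb (94047952-94048999), +10 kb (94041964-94043167), +12 kb (94040457-94040744), +17 kb (94034716-94036378), -22 kb (94074078-94075668), -26 kb (94078365-94079742) and -39 kb (94091389-94092465). A peak of its own at +1 kb (94050983-94051596) overlapped the wide gene start peak of the endogenous table. It also had -11 kb (94063021-94063450), -17 kb (94068994-94069380), -38 kb (94090503-94090772) and -95 kb (94147005-94147695). Values are reads in a peak divided by a size factor per library, as deposited, called normalized reads below. The tables were normalized separately, so levels are compared within a table only.

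Per kb of peak, accessibility in the endogenous table was highest at +17 kb, with 884 normalized reads per kb over all libraries. It was 798 at +10 kb, 715 at +12 kb, 698 at -22 kb and 603 at +4 kb, and the wide gene start peak had 523. The -26 kb element had 419, -39 kb had 151 and -15 kb had 33.2. All 9 had a mean of 10 or more normalized reads and were tested. In the OT-1 and naive table, 10 of 13 passed that filter. The -11, -17 and -38 kb elements did not, with 0 to 17, 0 to 10 and 0 to 15 reads in a library, and they are not described further.

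**Figure D1:**
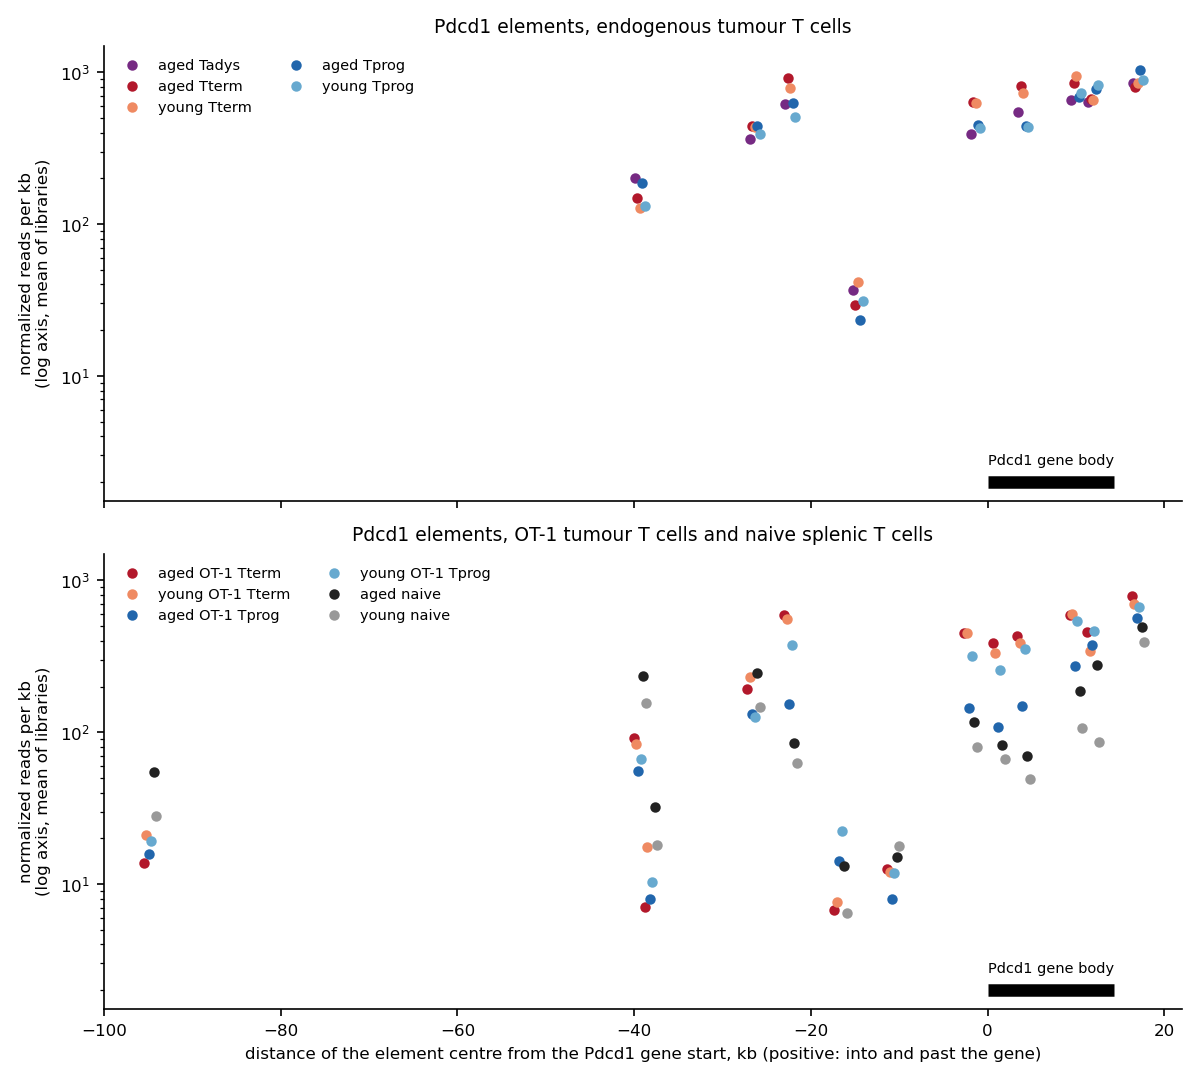
Mean normalized reads per kb (log axis) at each Pdcd1 element against the distance of its centre from the gene start in kb, for the endogenous groups (top) and the OT-1 and naive groups (bottom), with points of 1 element shifted sideways for legibility. In the lower panel the naive groups are the lowest at the gene start and at -22 kb and the highest at -39 and -95 kb.

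Depth ran between 4.64 and 87.6 megareads in peaks in endogenous libraries and between 6.80 and 27.7 megareads in OT-1 and naive libraries. All 4 CD8 T cell markers (Cd8a, Cd8b1, Cd3e, Cd3d) had peaks, none at 0 in any library. Genes of other cell types had accessible peaks too, with at most 1 gene of a list at 0 in a library. The summed reads per kb at the highest peak of each gene ran between 1584 and 2373 for CD8 markers, 1648 and 2969 for 5 of 6 CD4 and regulatory T cell genes with a peak, and 347 and 619 for 3 of 5 B cell genes in endogenous libraries. They ran between 1075 and 1489 for 6 of 7 melanocyte genes and 597 and 969 for 4 of 6 myeloid genes. Pairs of libraries of a group correlated at 0.863 or more over all tested peaks (Pearson r of log2 values), with the exception of the 2 aged OT-1 Tprog libraries, at 0.731. Aged OT-1 Tprog library 1 also had the lowest sum of normalized reads over all peaks, 7.92 megareads, against 10.2 to 15.0 megareads in the other libraries of its table. Per the labels, all endogenous libraries carry the same sequencing batch entry, which names batches 1 and 2. It does not say which library is of which batch, and the endogenous fit has no batch term, so a split between them was not modelled. OT-1 Tterm libraries 1 to 5 of each age and young OT-1 Tprog share the entry of batches 4 and 5. Aged OT-1 Tprog, aged OT-1 Tterm library 6 and young OT-1 Tterm libraries 6 and 7 are batch 6. Results that rest on aged OT-1 Tprog are given with and without its libraries. These are bulk libraries, so fewer cells with an open element and less accessibility per cell cannot be told apart.

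In young mice, endogenous Tterm cells had a more accessible Pdcd1 gene than Tprog cells. The gene start, +4 kb, +10 kb and -22 kb were higher in Tterm, 4 of 9 elements, and none was lower. In the same comparison 25.6% of all 71756 tested peaks were called, 14.3% higher and 11.3% lower. The median log2 difference of the 9 elements was 0.39, beside -0.01 over all tested peaks, and in aged mice it was 0.06, beside 0.01.

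At the gene start, the peak that holds the promoter, the young Tterm libraries had 3294, 4078, 3728, 3399 and 3442 normalized reads, and the young Tprog libraries had 2356, 2419, 2639.5 and 2522. Every Tterm library was above every Tprog library, as for 11.5% of all peaks. The log2 difference was 0.53 ± 0.10 (SE; 95% interval 0.33 to 0.73; limma adjusted p = 0.000177), a 1.44-fold difference. Log2 differences here and below are fitted on normalized reads plus 1.

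The +4 kb element, inside the gene, had 624, 936, 799, 705 and 661 normalized reads in young Tterm and 435, 462, 431 and 438 in young Tprog. These groups did not overlap either, and the Tprog libraries lay close together. The difference was the largest of the 9 in that comparison, 0.74 ± 0.13 on the log2 scale (SE; limma adjusted p = 0.000118), or 1.67-fold.

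Farther upstream, the -22 kb element had 1148, 1355, 1614, 1228 and 727 normalized reads in young Tterm and 811, 907, 869 and 525 in young Tprog. Tterm library 5 fell within the Tprog range. The difference was 0.63 ± 0.18 (SE; limma adjusted p = 0.0122). At +10 kb, Tterm libraries had 1024, 1345, 1295, 1267 and 1234 normalized reads and Tprog libraries 818, 1129, 1032 and 813, again with some overlap, and the difference was 0.39 ± 0.12 (SE; limma adjusted p = 0.016). Both calls depended on scaling and on 1 library. With library totals set equal, which moved the median of all peaks to -0.17, the difference at -22 kb was 0.47 (limma adjusted p = 0.0538) and at +10 kb 0.23 (limma adjusted p = 0.134). Without young Tprog library 4, the values were 0.45 (limma adjusted p = 0.0900) and 0.32 (limma adjusted p = 0.0796), and without young Tprog library 1 the +10 kb value was 0.32 (limma adjusted p = 0.0623). The gene start and +4 kb passed under each of these.

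The other 5 elements did not pass in young mice. At +17 kb, past the gene end, Tterm averaged 1584 ± 190 and Tprog 1666 ± 183 normalized reads (SD, n = 5 and 4), with a 95% interval of the log2 difference of -0.32 to 0.17. At -26 kb the averages were 488 ± 52.0 in Tterm and 438 ± 42.5 in Tprog, with an interval of -0.12 to 0.42. The intervals at +12 kb (-0.77 to 0.14), -39 kb (-0.55 to 0.41) and -15 kb (-0.69 to 1.56) were wider.

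In aged mice, 2 of the 9 elements passed, both higher in Tterm, where 12.1% of all tested peaks were called, 6.75% higher and 5.37% lower. The gene start had 3655, 3750.4 and 3679 normalized reads in aged Tterm and 2640.1, 2764 and 2337 in aged Tprog, without overlap. The log2 difference was 0.52 ± 0.12 (SE; limma adjusted p = 0.00349), again 1.44-fold. The +4 kb element had 747, 799 and 933 normalized reads in Tterm and 396, 514 and 433 in Tprog. These groups were also apart, and the difference was 0.88 ± 0.16 (SE; limma adjusted p = 0.000378), or 1.85-fold.

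At -22 kb, aged Tterm libraries had 1262, 1322 and 1645 normalized reads and aged Tprog libraries 1064, 1006 and 813. The libraries did not overlap, but the difference of 0.55 ± 0.22 did not pass (SE; limma adjusted p = 0.116). At +17 kb the order was turned, with 1764, 1262 and 1468 in Tterm and 1852, 1923 and 1981 in Tprog, and the difference of -0.37 ± 0.14 did not pass (SE; limma adjusted p = 0.0987). Library values that did not overlap were found at 28.8% of all peaks in this comparison.

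Sums over CD4 and regulatory T cell genes and over NK cell genes also lay higher in Tterm in these libraries. The first ran between 2400.1 and 2969 reads per kb in young Tterm and between 1648 and 2119 in young Tprog, and between 2615 and 2909 in aged Tterm and between 2131 and 2395 in aged Tprog. For 3 of 4 NK cell genes with a peak, the sums ran between 812 and 975 in young Tterm and between 579 and 671 in young Tprog, and between 749.6 and 876 in aged Tterm and between 572 and 705 in aged Tprog. In aged mice the CD8 markers (1869.5 to 2028 in Tterm and 1649.5 to 1796 in Tprog) and the B cell genes (457 to 562 in Tterm and 361 to 421 in Tprog) were apart as well, while in young mice they overlapped. Melanocyte and myeloid genes overlapped at both ages. Genes of these lists such as Ctla4 and Il2ra are also used by activated CD8 T cells. The part of the lists in the result was not tested.

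**Figure D2:**
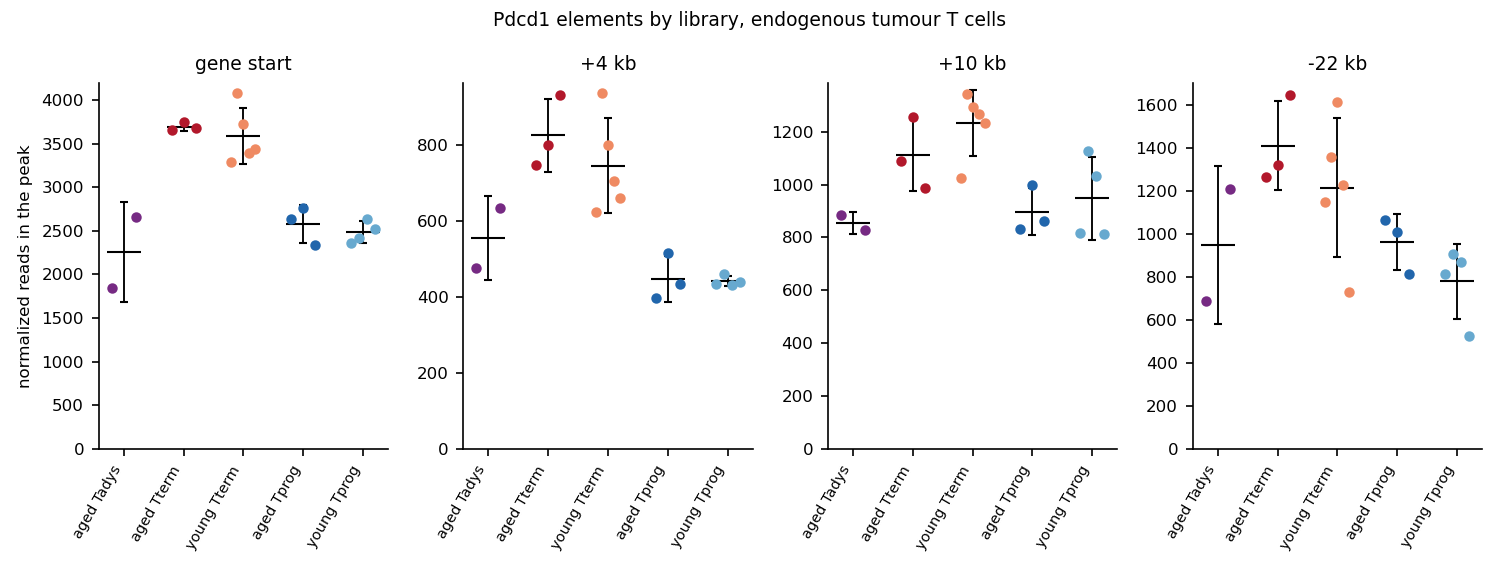
Normalized reads of each endogenous library (points) with mean and SD (black) at the gene start, +4 kb, +10 kb and -22 kb. At the gene start and +4 kb all Tterm libraries of either age lie above all Tprog libraries, and the 2 Tadys libraries lie below the aged Tterm libraries in all 4 panels.

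In endogenous cells none of the 9 elements passed the test of age. In Tterm, aged against young, log2 differences ran between -0.69 and 0.25 with a lowest limma adjusted p of 0.858, and 0 of 9 had an unadjusted p under 0.05. Over all peaks 0.00836% were called, 0.00697% higher and 0.00139% lower. In Tprog they ran between -0.32 and 0.41 with a lowest limma adjusted p of 0.541, again with 0 of 9 under an unadjusted 0.05, and 0.166% of all peaks were called, 0.0822% higher and 0.0836% lower. At the gene start the 95% interval of aged against young was -0.17 to 0.27 in Tterm and -0.18 to 0.28 in Tprog. At -22 kb it was -0.16 to 0.66 in Tterm and -0.10 to 0.76 in Tprog. The change of the Tterm-to-Tprog difference with age was tested directly: 0 of 9 passed with limma, edgeR or DESeq2, 0 had an unadjusted limma p under 0.05, and 0 of 71756 peaks were called. For the gene start it was -0.01 with an interval of -0.32 to 0.31.

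Tadys cells had a less accessible gene start than aged Tterm cells. The 2 Tadys libraries had 1849.5 and 2660.2 normalized reads there, and the aged Tterm libraries had 3655, 3750.4 and 3679. The difference was -0.74 ± 0.13 (SE; limma adjusted p = 0.00197), which is 0.600-fold. It was the only called element of 9, where 6.30% of all tested peaks were called, 2.06% higher and 4.23% lower. Tadys library 1 weighed on it: without that library the difference was -0.47 (limma adjusted p = 0.0783), and without Tadys library 2 it passed and 3 elements in all were called lower. In these fits the remaining Tadys library is assumed to vary like the other groups. The 2 Tadys libraries correlated at 0.863 over all peaks, less than pairs of other endogenous groups, and 36.8% of all peaks did not overlap between these groups, 19.1% being lower in Tadys.

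Another 4 elements were apart and lower in Tadys without passing. At +4 kb the values were 477 and 634 in Tadys against 747, 799 and 933 in aged Tterm (log2 difference -0.58 ± 0.18 SE; limma adjusted p = 0.0514). A pseudocount of 5, a minimum mean of 30 and DESeq2 each called 2 elements lower in Tadys. At -22 kb they were 687 and 1206 in Tadys against 1262, 1322 and 1645 in aged Tterm, at +10 kb 886 and 826 in Tadys against 1091, 1256 and 987 in aged Tterm, and at -26 kb 357 and 449.7 in Tadys against 535, 478 and 473 in aged Tterm. The -39 kb element did not follow, with 238 and 199 normalized reads in Tadys against 214, 119 and 149 in aged Tterm. The remaining elements overlapped too. Means in Tadys and aged Tterm were 1581 and 1498 at +17 kb, 163 and 169 at +12 kb, and 16.9 and 13.4 at -15 kb. The CD4 and regulatory T cell genes summed to 2098 to 2456 reads per kb in Tadys and 2615 to 2909 in aged Tterm, the NK cell genes to 554 to 731 in Tadys and 749.6 to 876 in aged Tterm, and the B cell genes to 347 to 427 in Tadys and 457 to 562 in aged Tterm, while CD8, melanocyte and myeloid genes overlapped. Their part in the result was not tested.

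Against aged Tprog, Tadys showed no called element (0 of 9 with limma, 0 at an unadjusted p under 0.05, with 6.65% of all peaks called, 2.61% higher and 4.04% lower). At the gene start the aged Tprog libraries had 2640.1, 2764 and 2337 normalized reads, so that 1 Tadys library lay below and 1 within that range, and the 95% interval of the log2 difference was -0.49 to 0.06. At +4 kb it was -0.07 to 0.67. Without Tadys library 2, 1 element was called lower. Both Tadys comparisons share the 2 Tadys libraries.

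**Figure D3:**
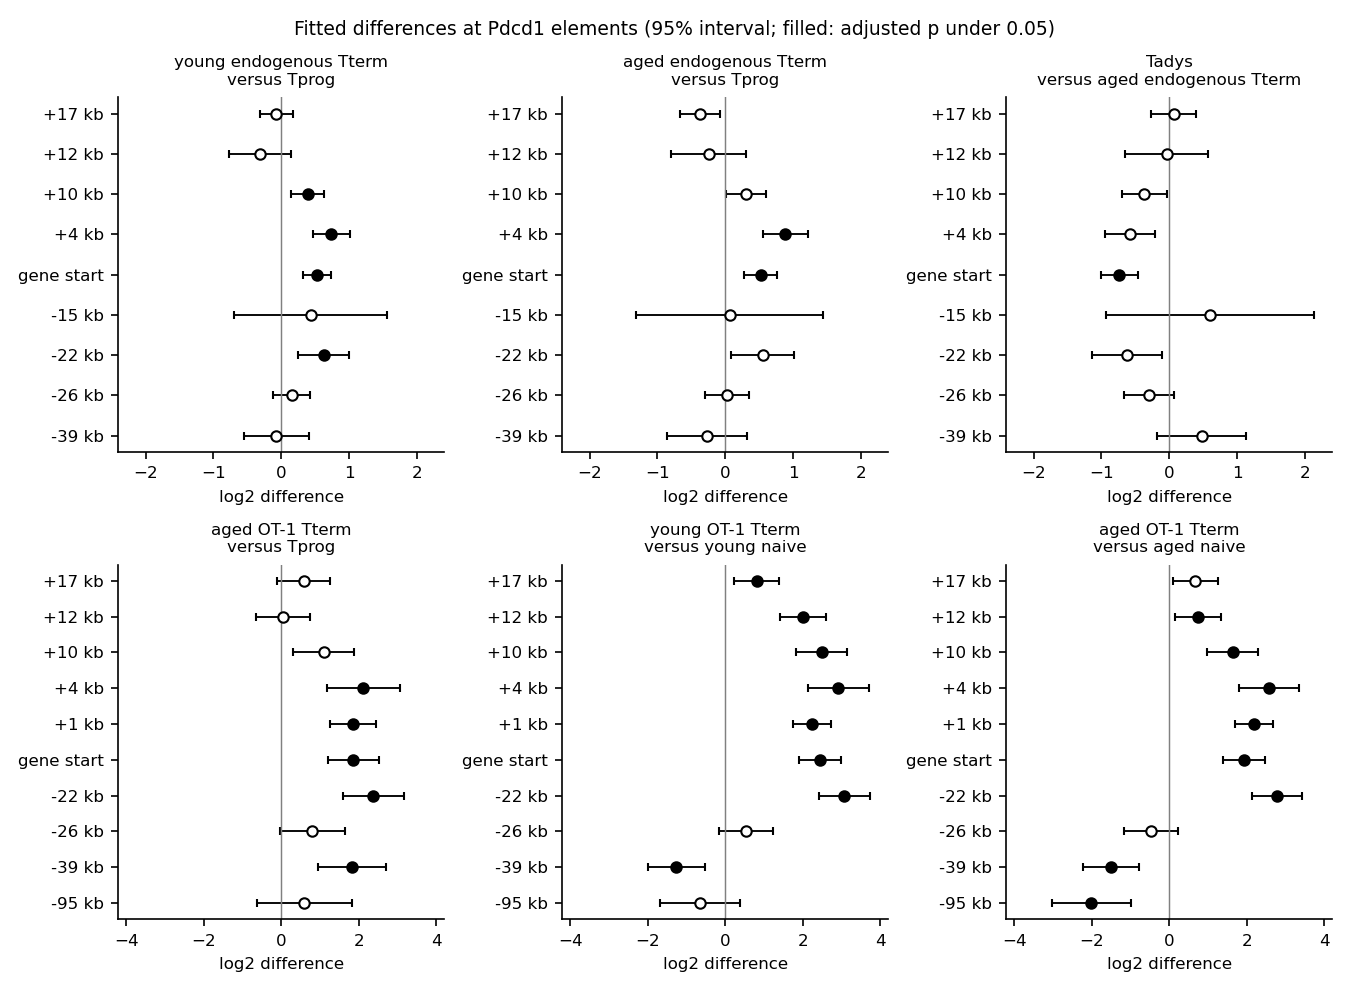
Log2 difference (x axis, with 95% interval) at each Pdcd1 element for 6 comparisons, with the sign positive where the group named first is higher and filled points for a limma adjusted p under 0.05. The gene start and +4 kb are filled in both endogenous Tterm comparisons and in the aged OT-1 comparison, and -39 kb lies on the negative side against naive cells.

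OT-1 cells in the tumour were compared with naive cells of the spleen. Tterm cells of either age were far more accessible than naive cells at the gene start, in the gene body and at -22 kb, and less accessible at -39 kb. In young mice 7 of the 10 tested elements were higher and 1 was lower in OT-1 Tterm, where 40.3% of all 84091 tested peaks were called, 22.4% higher and 17.9% lower. In aged mice 6 were higher and 2 lower, where 47.7% were called, 21.4% higher and 26.3% lower. All naive libraries form sequencing batch 3 of the labels, which holds no other library, so batch and cell type cannot be told apart. Marker sums differed too. CD8 markers summed to 1049.5 to 1717.5 reads per kb in young OT-1 Tterm and 807 to 831 in young naive cells, and to 1189 to 1685 in aged OT-1 Tterm and 921 to 938 in aged naive cells. CD4 and regulatory T cell genes summed to 1162 to 2186.5 in young OT-1 Tterm and 882 to 987 in young naive cells, and to 1371 to 2099 in aged OT-1 Tterm and 1055 to 1072 in aged naive cells. In young mice myeloid genes were also apart, with 421 to 541 in OT-1 Tterm and 325 to 376 in naive cells. Their part in the result was not tested.

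The -22 kb element differed most. It had 637, 861 and 1204 normalized reads (lowest, median and highest of 7) in young OT-1 Tterm and 109 and 91.4 in young naive cells. The groups were far apart, and the log2 difference was 3.07 ± 0.32 (SE; limma adjusted p = 5.9e-08), or 8.39-fold, above 99.0% of all tested peaks. In aged mice it had 815, 951 and 1081 normalized reads (lowest, median and highest of 6) in OT-1 Tterm and 140.3 and 129 in naive cells. The difference was 2.78 ± 0.32 (SE; limma adjusted p = 2.95e-07), or 6.87-fold.

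The gene start stood apart too. Young OT-1 Tterm libraries had a lowest, median and highest value of 1620.1, 2038 and 3006 normalized reads, and the young naive libraries had 369.5 and 383. The log2 difference was 2.44 ± 0.26 (SE; limma adjusted p = 1.07e-07), or 5.41-fold. In aged mice the values were 1824, 2153 and 2431 in OT-1 Tterm and 584 and 523 in naive cells, a difference of 1.92 ± 0.26 (SE; limma adjusted p = 3.53e-06), or 3.78-fold. Every OT-1 Tterm library lay above every naive one, as for 24.7% of all peaks in young and 24.5% in aged mice.

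Inside the gene, +4 kb was 7.55-fold higher in young and 5.96-fold higher in aged OT-1 Tterm than in naive cells of the same age, +1 kb 4.72-fold in young and 4.57-fold in aged, and +10 kb 5.60-fold in young and 3.11-fold in aged. Their naive levels were 44.98 to 81.7, 39.8 to 52.9 and 112 to 243 normalized reads, and all 3 passed at both ages (limma adjusted p of 0.000217 or less). The +12 kb element was 4.02-fold higher in young OT-1 Tterm (limma adjusted p = 4.94e-06) and 1.68-fold in aged (limma adjusted p = 0.0343). The aged call did not hold in 7 of 17 alternatives, which include leaving out either naive library. The +17 kb element was 1.75-fold higher in young OT-1 Tterm (limma adjusted p = 0.0243), a call lost without either young naive library, and 1.59-fold in aged (limma adjusted p = 0.0525).

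Upstream, the order was turned at -39 kb. Young OT-1 Tterm libraries had 53.3, 78.4 and 168 normalized reads (lowest, median and highest) and young naive libraries 181 and 156. The highest OT-1 library fell between the naive ones, and the log2 difference was -1.26 ± 0.35 (SE; limma adjusted p = 0.00619), or 0.418-fold. It was -1.15 (limma adjusted p = 0.0831) without young naive library 1 and missed the threshold by little (limma adjusted p = 0.0526) without the batch term. In aged mice OT-1 Tterm had 70.3, 98.0 and 134 and naive cells 251 and 252, without overlap, a difference of -1.51 ± 0.35 (SE; limma adjusted p = 0.00142). The shallow -95 kb element followed in aged mice, with 6.93, 9.54 and 12.0 normalized reads in OT-1 Tterm (7 to 24 reads per library) and 38.6 and 37.3 in naive cells (46 and 57 reads), a difference of -2.01 ± 0.50 (SE; limma adjusted p = 0.00214). In young mice it did not pass, with an interval of -1.68 to 0.37. The -26 kb element did not pass at either age, with intervals of -0.15 to 1.24 in young and -1.18 to 0.22 in aged mice.

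Young OT-1 Tprog cells also differed from young naive cells, with 6 elements higher and 1 lower where 24.2% of all peaks were called, 15.0% higher and 9.15% lower. They had 1415 and 1573 normalized reads at the gene start, against 369.5 and 383 in naive cells, or 3.96-fold (limma adjusted p = 7.2e-05). At -22 kb they had 570.0 and 626, against 109 and 91.4 in naive cells, or 5.93-fold (limma adjusted p = 3.36e-05). The +1, +4, +10 and +12 kb elements were the other higher ones, 3.82-fold to 7.09-fold, and -39 kb was the lower one, with 56.9 and 86.1 in young OT-1 Tprog against 181 and 156 in naive cells (limma adjusted p = 0.0348). That last call was lost when any 1 library of the comparison was left out, with adjusted p between 0.0565 and 0.224. All 6 marker lists were apart between young OT-1 Tprog and young naive cells, 5 of them higher in OT-1 Tprog (CD8 markers 1157 to 1164 in OT-1 Tprog and 807 to 831 in naive cells) and the NK cell genes lower (284 to 315 in OT-1 Tprog and 457 to 473 in naive cells). Their part in the result was not tested. Each naive comparison of an age shares its 2 naive libraries.

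Within young OT-1 cells, Tterm against Tprog gave no called element (0 of 10 with limma, edgeR or DESeq2, 1 at an unadjusted p under 0.05; 7.63% of all peaks were called, 4.06% higher and 3.57% lower). The gene start had 1620.1, 2038 and 3006 normalized reads (lowest, median and highest) in Tterm and 1415 and 1573 in Tprog, apart but with an interval of -0.09 to 0.99. It was 1 of 3 elements that were apart, 2 higher and 1 lower in Tterm, where 23.0% of all peaks were so, 11.5% in each direction. The lower one was +12 kb, by a margin far under the spread between libraries, with 52.2, 98.0 and 129.37 (lowest, median and highest) in Tterm and 129.39 and 139 in Tprog. At -22 kb the values were 637, 861 and 1204 in Tterm and 570.0 and 626 in Tprog, with an interval of -0.15 to 1.16. NK cell genes summed to 382 to 625 in Tterm and 284 to 315 in Tprog, and the other lists overlapped. The part of these genes was not tested. OT-1 and endogenous cells were not compared by a test, since the tables were normalized separately.

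In aged OT-1 cells 5 of 10 elements were higher in Tterm than in Tprog and none was lower. Over all tested peaks 14.7% were called, 11.3% higher and 3.39% lower, and the median log2 difference was 0.15. The 2 aged Tprog libraries were far from each other at most of these elements. Aged Tterm had 1824, 2153 and 2431 normalized reads (lowest, median and highest of 6) at the gene start, and aged Tprog had 406 and 956. Both Tprog values lay below every Tterm value, as at 4 of the 10 elements and at 10.9% of all peaks, and the log2 difference was 1.86 ± 0.31 (SE; limma adjusted p = 0.000254). At -22 kb Tterm had 815, 951 and 1081 and Tprog 94.3 and 394, with a difference of 2.37 ± 0.38 (SE; limma adjusted p = 0.000149). The first Tprog library lay within the range of young naive cells at that element (91.4 to 109) and below both aged naive libraries (129 and 140.3). The second Tprog library lay well above all naive libraries.

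The remaining calls of that comparison were +1 kb (204, 234 and 291 in Tterm, 69.8 and 62.9 in Tprog; limma adjusted p = 9.09e-05), +4 kb (365, 429 and 562 in Tterm, 43.1 and 269.7 in Tprog; limma adjusted p = 0.00255) and -39 kb (70.3, 98.0 and 134 in Tterm, 20.9 and 99.1 in Tprog; limma adjusted p = 0.00473). The -39 kb groups overlapped. At +10 kb the 2 Tprog libraries changed places, with 461 in library 1 and 199.9 in library 2, and it did not pass (limma adjusted p = 0.0526). Among the 5 called elements, +1 kb alone had close Tprog libraries.

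These calls rest on how the spread and the batch are modelled. All aged OT-1 Tprog libraries are in batch 6 with 1 aged Tterm library. Within batch 6 alone, and in a fit of these 2 groups alone with the batch term, the gene start difference was 1.55 and the -22 kb difference 2.14, and 0 of 10 elements passed. Among the 5 elements the lowest limma adjusted p was then 0.559 in batch 6 alone and 0.119 in the fit of these groups alone, while edgeR and DESeq2 each called 5. Without aged Tprog library 1, the difference fell to 1.25 at the gene start and to 1.35 at -22 kb, which still passed, and to 0.81 (limma adjusted p = 0.130) at +4 kb and 0.73 (limma adjusted p = 0.236) at -39 kb, which did not. Without library 2 it was 2.48 at the gene start and 3.40 at -22 kb. CD4 and regulatory T cell genes summed to 609 and 1269 reads per kb in the 2 aged Tprog libraries, against 1371 to 2099 in aged Tterm, and NK cell genes to 248 and 390.3 in aged Tprog, against 400.3 to 513 in aged Tterm, both apart. The other lists overlapped, the CD8 markers with 618 and 1331 in aged Tprog, against 1189 to 1685 in aged Tterm. Their part in the result was not tested.

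The same 2 libraries enter the comparison of aged with young OT-1 Tprog. No element passed (0 of 10 with limma, 6 at an unadjusted p under 0.05, lowest limma adjusted p 0.126; 0.0951% of all peaks were called, 0.0226% higher and 0.0725% lower). Yet 5 elements were apart and lower in aged cells, as were 15.9% of all peaks. Gene start values were 406 and 956 normalized reads in aged and 1415 and 1573 in young OT-1 Tprog, and at -22 kb 94.3 and 394 in aged and 570.0 and 626 in young. With library totals set equal, and also with DESeq2, 2 elements were called lower. Without aged Tprog library 2, only the library of lowest total remained in that group, and the limma count of lower elements rose. Aged and young OT-1 Tprog libraries lie in different batches, which only the Tterm libraries link. The change of the Tterm-to-Tprog difference with age, a test added after the values had been seen, passed at 0 of 10 elements (limma, 5 at an unadjusted p under 0.05, lowest adjusted p 0.202; 0.0143% of all peaks were called, 0.0131% higher and 0.00119% lower). DESeq2 called 1 element and edgeR 0. The limma count rose when aged Tprog library 2 was left out, which leaves 1 library in that group.

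Against aged naive cells, aged OT-1 Tprog had no higher element and 2 lower ones, where 28.1% of all peaks were called, 10.0% higher and 18.1% lower. At -39 kb they had 20.9 and 99.1 normalized reads, against 251 and 252 in naive cells (limma adjusted p = 4.94e-05), and at -95 kb 17.5 and 4.31 (15 and 5 reads), against 38.6 and 37.3 in naive cells (limma adjusted p = 0.00924). The gene start had 406 and 956 in aged OT-1 Tprog, against 584 and 523 in naive cells, so the naive libraries lay between them. Without aged Tprog library 1, 5 elements were called, 3 of them higher, and edgeR also called 3 higher and 2 lower. In a fit of these 2 groups alone none was called, and the -95 kb call was also lost without aged Tprog library 2 (limma adjusted p = 0.0734). NK cell genes summed to 248 to 390.3 in aged OT-1 Tprog and 508 to 571 in aged naive cells, melanocyte genes to 566 to 721 in OT-1 Tprog and 742 to 798 in naive cells, myeloid genes to 326 to 462 in OT-1 Tprog and 465 to 483 in naive cells, and B cell genes to 277 to 356 in OT-1 Tprog and 214 to 231 in naive cells. CD8 and CD4 lists overlapped. The part of these lists was not tested.

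In aged against young OT-1 Tterm cells no element passed (0 of 10 with limma and 0 at an unadjusted p under 0.05; 0.266% of all peaks were called, 0.178% higher and 0.0880% lower). The interval of aged against young was -0.33 to 0.40 at the gene start and at -22 kb -0.31 to 0.58. The largest positive difference, 0.40 ± 0.20 (SE; limma adjusted p = 0.632), was at +12 kb, where aged Tterm had 109, 126 and 175 normalized reads and young Tterm 52.2, 98.0 and 129.

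Naive cells differed with age at +12 kb, a short element inside the gene. The aged naive libraries had 78.1 and 82.4 normalized reads and the young ones 26.3 and 23.3, a log2 difference of 1.66 ± 0.35 (SE; limma adjusted p = 0.00448), or 3.15-fold. It was the only called one of 10 elements, where 5.24% of all peaks were called, 4.08% higher and 1.16% lower. The call was lost by a small margin without aged naive library 1 (1.69, limma adjusted p = 0.0536) or young naive library 2 (1.57, limma adjusted p = 0.0688). In a fit of the 4 naive libraries alone 7 elements were called, all higher in aged. The share of all peaks called in that fit is not given here, so the 7 are not read as particular to Pdcd1.

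All 10 elements were apart and higher in aged naive cells, where 40.7% of all tested peaks were so and the median log2 difference of all peaks was 0.11. Sums of normalized reads over all peaks were higher too, 12.4 and 11.8 megareads in aged and 10.2 and 10.3 megareads in young naive libraries. The part of these sums in the order of the 10 elements was not tested. The aged libraries had 584 and 523 and the young ones 369.5 and 383 normalized reads at the gene start, which did not pass (limma adjusted p = 0.396). At -26 kb they had 361 and 319 in aged and 183 and 222 in young (limma adjusted p = 0.366), and at +10 kb 210.0 and 243 in aged and 144 and 112 in young (limma adjusted p = 0.260). With 2 libraries a group, the interval at the gene start ran from -0.10 to 1.21. All 6 marker lists were apart between these groups as well. Melanocyte genes summed to 742 to 798 reads per kb in aged and 609 to 611 in young naive cells, myeloid genes to 465 to 483 in aged and 325 to 376 in young, CD4 and regulatory T cell genes to 1055 to 1072 in aged and 882 to 987 in young, CD8 markers to 921 to 938 in aged and 807 to 831 in young, and NK cell genes to 508 to 571 in aged and 457 to 473 in young. The B cell genes were lower, with 214 to 231 in aged and 274 to 283 in young naive cells. Their part in the result was not tested.

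**Figure D4:**
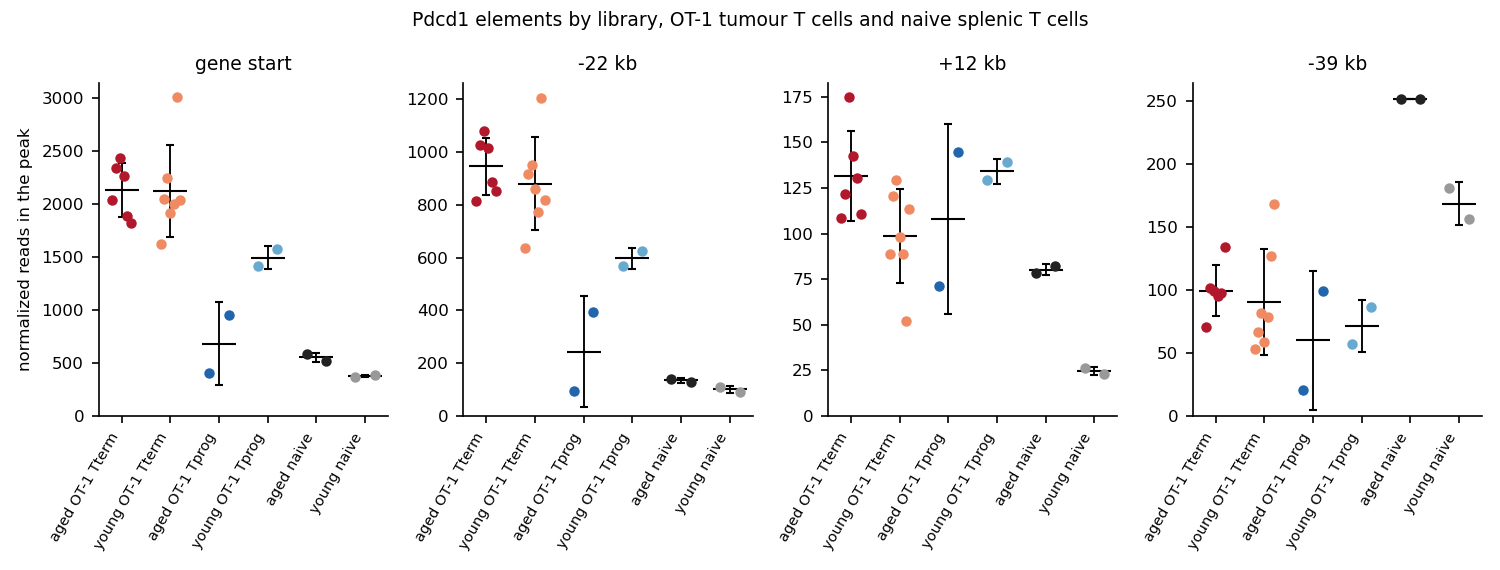
Normalized reads of each OT-1 and naive library (points) with mean and SD (black) at the gene start, -22 kb, +12 kb and -39 kb. OT-1 Tterm libraries stand above naive ones at the gene start and -22 kb, the 2 aged OT-1 Tprog libraries are far apart in all 4 panels, and young naive cells are lowest at +12 kb.

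Within each table, group means of the sum over the locus had the same order as those of the gene start. The gene start is part of that sum, 20.4% to 41.7% of it in a library, so the 2 are not independent. The 9 endogenous elements held 6995 ± 1496 normalized reads in Tadys (SD, n = 2), 9379 ± 160.4 in aged Tterm (n = 3), 9177 ± 952 in young Tterm (n = 5), 7707 ± 492 in aged Tprog (n = 3) and 7121 ± 583 in young Tprog (n = 4). By these sums, every Tterm library was above every aged or young Tprog library except that young Tterm (lowest 8248) overlapped aged Tprog (highest 8271). As a share of all reads in peaks, young Tterm also overlapped young Tprog. Young Tterm library 5 (0.0423%) lay below young Tprog libraries 2 (0.0438%) and 3 (0.0426%) and aged Tprog library 2 (0.0443%). The 13 elements of the other table held 6311 ± 915 in aged OT-1 Tterm (n = 6), 6037 ± 1209 in young OT-1 Tterm (n = 7), 2797 ± 1337 in aged OT-1 Tprog (n = 2), 4783 ± 311 in young OT-1 Tprog (n = 2), 2583 ± 30.0 in aged naive cells (n = 2) and 1780.1 ± 21.8 in young naive cells (n = 2). In order of these means, neighbours whose ranges overlapped were aged and young OT-1 Tterm, young OT-1 Tterm and young OT-1 Tprog, and aged OT-1 Tprog and aged naive.

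The makeup of the locus differed between OT-1 Tterm and naive cells. In OT-1 Tterm libraries the gene start held 32.2% to 37.1% of the locus and +17 kb 17.9% to 23.1%. In naive libraries the +17 kb element held the largest share, 30.6% to 37.1%, and the gene start 20.4% to 22.4%. The -22 kb element held 13.8% to 16.5% in OT-1 Tterm and 5.03% to 6.19% in naive libraries, and -39 kb held 1.04% to 2.87% in OT-1 Tterm and 8.71% to 10.2% in naive libraries. The aged OT-1 Tprog libraries, though from tumours, did not share the Tterm makeup. Library 1 had 29.9% at +17 kb, 21.9% at the gene start and 5.09% at -22 kb, and library 2 had 35.8% at +17 kb, 25.6% at the gene start and 10.5% at -22 kb. Young OT-1 Tprog libraries had 31.0% to 31.4% at the gene start and 22.5% to 23.7% at +17 kb. In endogenous cells the gene start shares overlapped, with 38.0% to 41.7% in Tterm libraries and 31.6% to 39.1% in Tprog libraries. The +17 kb shares did not overlap, with 13.7% to 18.6% in Tterm and 22.1% to 26.9% in Tprog libraries. Tadys libraries had 31.2% to 33.0% at the gene start and 21.8% to 23.2% at +17 kb.

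Across libraries the elements varied with the gene start to different degrees, given here as Pearson r of log2 values and as a description, since libraries share groups and depth. Over the 21 OT-1 and naive libraries the gene start correlated with -22 kb at 0.99, +4 kb at 0.98, +1 kb at 0.94, +10 kb at 0.88, +17 kb at 0.85 and +12 kb at 0.66. It correlated with -26 kb at 0.37, -39 kb at -0.20 and -95 kb at -0.45. Over the 17 endogenous libraries, which hold no naive cells, it correlated with +4 kb at 0.87, +10 kb at 0.75, -22 kb at 0.73 and -26 kb at 0.64, and with -15 kb at -0.02, +12 kb at -0.09, +17 kb at -0.13 and -39 kb at -0.37.

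The peaks most like the Pdcd1 elements across libraries were ranked by the same measure among peaks with a mean of 30 or more normalized reads, more than 1 Mb from Pdcd1. For the gene start over 17 endogenous libraries, the nearest genes of the most similar peaks were Adamts14 (r = 0.97), Ggt5, Fam110a, Bend4 and Aopep, all at 0.96, where the median of 54350 peaks was 0.11. For -22 kb in the same libraries they were Ctif (0.91), Uap1, Akap13, Polr3b and Btg1. Over 21 OT-1 and naive libraries they were Galm, Manba, Atf6, Frmd4a and Rnpep for the gene start and Rad50, Havcr2, Cep41, Rest and Jade2 for -22 kb, at r of 0.99 or more. Havcr2 encodes Tim-3, on which the Tterm gate was set.

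The other genes of the pathway are given as counts of peaks. Among 85 peaks of 12 co-inhibitory receptor genes, 27 were higher and 12 lower in young endogenous Tterm than Tprog (median log2 difference 0.22), where 14.3% of all peaks were higher and 11.3% lower. In aged mice 24 were higher and 8 lower, where 6.75% of all peaks were higher and 5.37% lower. The ones of lowest adjusted p in young mice were peaks of Havcr2 (1.15 ± 0.10 SE), Entpd1, an ectonucleotidase (1.29 ± 0.13 SE), and Cd244a, a receptor of the SLAM family (1.32 ± 0.14 SE), all higher, and of Btla, an inhibitory receptor (-2.30 ± 0.24 SE), lower (limma adjusted p of 4.39e-08 or less). In Tadys against aged Tterm, 4 were higher and 18 lower, where 2.06% of all peaks were higher and 4.23% lower, led by peaks of Havcr2 (-0.99 ± 0.17 SE; limma adjusted p = 0.00124) and Cd200r1 (-1.72 ± 0.31 SE; limma adjusted p = 0.00197). Havcr2 is named in the gates, so its direction is not independent of the sort.

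In OT-1 cells 47 of 93 such peaks were higher and 13 lower in young Tterm than in young naive cells, where 22.4% of all peaks were higher and 17.9% lower. In aged mice 48 were higher and 19 lower, where 21.4% of all peaks were higher and 26.3% lower. Peaks of Entpd1 (3.87 ± 0.28 SE), Havcr2 (3.00 ± 0.23 SE) and Lag3, a receptor for MHC class II (2.87 ± 0.25 SE), led in young mice with limma adjusted p of 5.31e-09 or less. Entpd1 was also among the genes with a lower peak. In aged OT-1 Tterm against Tprog 41 were higher and 1 lower, where 11.3% of all peaks were higher and 3.39% lower, in the comparison that rests on the 2 dissimilar Tprog libraries.

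Peaks of genes reported to regulate Pdcd1 were called in both directions, also within a gene. Values below are for the peak of lowest adjusted p of a gene, which need not give the direction of its other peaks. Foxp1 and Nfatc2 had called peaks both ways in young endogenous Tterm against Tprog. The same held for Foxp1 in Tadys against aged Tterm, and for Satb1 and Stat4 in young OT-1 Tterm against naive cells. Of 415 peaks of 23 such genes, 44 were higher and 101 lower in young endogenous Tterm than Tprog, with a median of -0.17, where 14.3% of all peaks were higher and 11.3% lower. Peaks of Tcf7, which encodes the progenitor factor TCF-1 (-2.29 ± 0.14 SE), of Foxp1 (-2.72 ± 0.19 SE) and of Jun, an AP-1 subunit (-3.12 ± 0.27 SE), were lower, and a peak of Nfatc2, an NFAT factor (1.55 ± 0.13 SE), was higher (limma adjusted p of 2.4e-09 or less). In Tadys against aged Tterm 15 were higher and 20 lower, beside 2.06% and 4.23% of all peaks, with peaks of Tcf7 (1.60 ± 0.19 SE) and Foxp1 (1.56 ± 0.26 SE) higher and of Nfatc2 (-1.77 ± 0.33 SE) and Prdm1, which encodes BLIMP-1 (-0.76 ± 0.15 SE), lower (limma adjusted p of 0.00392 or less). In young OT-1 Tterm against naive cells 180 of 522 were higher and 136 lower, beside 22.4% and 17.9% of all peaks. A Stat4 peak was among the higher (2.32 ± 0.20 SE). A peak of Satb1, reported as a repressor of Pdcd1 in mouse T cells, was among the lower (-3.35 ± 0.27 SE, limma adjusted p of 4.86e-09 or less for both).

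Of 164 peaks of PD-1 ligands and signalling genes, 29 were higher and 23 lower in young endogenous Tterm than Tprog, with a median of 0.02, beside 14.3% and 11.3% of all peaks. A peak of Ptpn6, which encodes the phosphatase SHP-1, was higher (0.99 ± 0.11 SE). Peaks of the receptor chain gene Cd247 (-1.97 ± 0.19 SE) and the adaptor gene Lat (-1.52 ± 0.15 SE) were lower (limma adjusted p of 1.39e-07 or less for each). Lat was also among the genes with a higher peak. The 9 neighbouring genes within 300 kb had 25 tested peaks in the endogenous table, of which 2 were higher and 4 lower in young Tterm than Tprog, where 25.6% of all peaks were called, and 1 was higher in aged mice, where 12.1% were called. Among their 26 tested peaks in OT-1 and naive libraries, 4 were higher and 1 lower in young OT-1 Tterm than in naive cells, where 40.3% of all peaks were called.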

How the data were processed

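Sorted CD8+ T cells were profiled by ATAC-seq with paired reads of 50 bp. Per the submitters' processing notes, the build was mm10 and the tools named were MACS2 2.1.1, DESeq2 1.28.1, Bowtie2 2.2.9, SAMtools 1.3.1 and Picard 2.8.0, with no role or order given. Read shifting and peak merging are not given in the sources used here. The authors deposited signal values, which are reads per peak divided by a size factor per library. Every value was a whole multiple (within 0.02) of what 1 read is worth in its column, so whole reads were recovered for depth and count tests (100% of values).

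Peaks were given to the nearest of 21900 RefSeq protein-coding gene bodies. Peaks with a mean of 10 or more were tested, 71756 and 84091, on a log2 scale after adding a pseudocount of 1, with limma 3.58.1 (R 4.3.3), all groups of a table in 1 model, intensity trend, a batch 6 term in the OT-1 and naive table, and Benjamini-Hochberg adjustment over all tested peaks. A call is an adjusted p under 0.05, and intervals are 95%. The fit was also run on simulated reads, with an outcome not given here. These were drawn without a batch effect or a dissimilar library, so they do not cover the conditions of the aged OT-1 Tprog comparisons. Alternatives were a pseudocount of 5, no filter, a mean of 30, equal totals, a replicate block, compared groups alone, other batch handling, a 10 kb limit, edgeR 4.0.16, DESeq2 1.42.0 and each library left out.

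Every Pdcd1 peak was accounted for. Other genes came from lists of general knowledge, with at most 4 of lowest adjusted p named per comparison, and from the 5 peaks of highest correlation. Members and lists were chosen with earlier results of these data known. Python 3.11.15 and matplotlib 3.10.9 drew the plots.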

Additional observations from a re-analysis of the deposited data

Results flagged for a closer look

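In 2 of 38 combinations of element and group, the highest library stood apart from the rest of its group by Dixon's test. Only young endogenous Tterm, young endogenous Tprog and OT-1 Tterm of each age had enough libraries to be looked at. Chance gives about 1 in 20. The +10 kb element had 1235.7 normalized reads in young OT-1 Tterm library 6, where the next of 7 libraries had 772. That library also had the highest gene start of its group, 3006, and the highest sum of normalized reads over all peaks in its table, 15.0 megareads. The -15 kb element had 26.7 normalized reads (29 reads) in young endogenous Tprog library 2, where the next of 4 libraries had 10.4.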

How the results depend on the processing

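Of 296 recomputed counts of called elements over 17 comparisons, 271 stayed within 1.5 times the reported count. They include comparisons with a reported count of 0, such as the endogenous tests of age, where staying means 0 again. The 271 therefore do not measure the stability of calls alone. Of 599 recomputed differences of called elements 558 stayed called, 41 did not and 0 changed sign. With equal library totals, the count was 2 for young endogenous Tterm against Tprog, 2 for OT-1 Tprog by age and 1 for the OT-1 change with age. DESeq2 gave 2 for Tadys against aged Tterm, 2 for OT-1 Tprog by age and 1 for the OT-1 change with age. A pseudocount of 5 or a mean of 30 gave 2 for Tadys against aged Tterm. Fits of the compared groups alone gave 0 for aged OT-1 Tterm against Tprog, as did batch 6 alone, 7 for naive cells by age and 0 for aged OT-1 Tprog against naive, where edgeR gave 5. The limit of 10 kb, which leaves fewer elements, gave 3, 5 and 0 for aged OT-1 Tterm against Tprog, aged Tterm against naive and aged Tprog against naive. Leaving out 1 library gave counts of 2 to 4 for young endogenous Tterm against Tprog, 0 to 3 for Tadys against aged Tterm, 0 to 1 for Tadys against aged Tprog, 0 to 5 for OT-1 Tprog by age, 0 to 1 for naive cells by age, 2 to 5 for aged OT-1 Tprog against naive and 0 to 5 for the OT-1 change with age. The cause was not tested. Shares over all peaks are given for the main fit only, so counts under the alternatives have no such share beside them.

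The main fit did not pair libraries by replicate number. Deviations of same-numbered libraries, of any age, correlated between -0.27 and 0.28 in the endogenous table, and between -0.27 and 0.06 for Tterm with Tprog of one age. Aged OT-1 Tterm and Tprog libraries of the same number correlated at 0.20 and 0.14. Deviations within a small group depend on each other, and in groups of 2 they mirror each other. These values therefore cannot show whether libraries are paired. With the replicate block, counts were 4 for young and 3 for aged endogenous Tterm against Tprog, 1 for Tadys against aged Tterm, 1 for naive cells by age and 7 for young OT-1 Tterm, young OT-1 Tprog and aged OT-1 Tterm against naive. In comparisons with aged OT-1 Tprog the block could not be fitted, since batch and block cannot be separated there. A fit of compared groups alone was not run for OT-1 Tprog by age, where batch and age coincide.

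Naive, Tadys and OT-1 Tprog results rest on groups of 2 libraries. Intervals at the shallow -15 and -95 kb elements were wide, and -11, -17 and -38 kb were too shallow to test. Batch 3 cannot be told apart from the naive state. Gene assignments of distal elements rest on distance.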
